A study of Mus musculus with 8 samples.

Results

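The respiratory chain genes of the P1 mouse cortex were examined in RNA-seq counts of 4 control and 4 dcKO_Nex-Cre libraries. A gene was taken when it was annotated as protein-coding and its symbol began with mt-, Nduf, Uqcr, Atp5 or Cox and a digit, or was *Sdha*, *Sdhb*, *Sdhc* or *Sdhd*. Of 115 genes that carried such a symbol, 106 had a mean of at least 10 raw counts over the 8 libraries, out of 48709 genes listed in all. The 106 genes were 7 genes of the mitochondrial genome and 99 genes of the nuclear genome. All 106 also passed the filter on low counts that was applied before the test, so no gene of the group was lost there. The mutants were homozygous for floxed *Smarcc1* (BAF155) and *Smarcc2* (BAF170) and carried Nex-Cre, a Cre recombinase placed in the *Neurod6* (Nex) locus that acts in postmitotic projection neurons. The controls carried 1 floxed allele of each gene and no Cre, and both groups were on a C57BL6/J background. An effect of the Cre allele itself cannot be told apart from that of the deletions. The sample labels name the groups as control and mutant at postnatal day 1, and the genotypes were taken from the methods of the study. RNA came from whole cortex, so glia, interneurons, progenitors and vessel cells, in which Nex-Cre is not active, contributed to every library.

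The respiratory chain sits in the inner mitochondrial membrane. Complex I (NADH dehydrogenase), complex II (succinate dehydrogenase), complex III (cytochrome bc1) and complex IV (cytochrome c oxidase) pass electrons to oxygen, and complexes I, III and IV pump protons. Complex V, the ATP synthase, uses the proton gradient to make ATP, on which neurons depend heavily for ion pumping and synaptic transmission. Mitochondrial DNA encodes a few subunits of complexes I, III, IV and V, together with ribosomal and transfer RNAs, and these are transcribed as long precursors that are cut into single RNAs. All other subunits, every subunit of complex II and all assembly factors are encoded in the nucleus, translated in the cytosol and imported.

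Total counts were between 17958641 and 35191912 per library. Counts are given as CPM, the usual scale that sets each count against its library's size, here after TMM scaling in edgeR, and dcKO_Nex-Cre was tested against control over 16287 genes by the quasi-likelihood method of edgeR, with Benjamini-Hochberg adjustment. A gene is called changed at an adjusted p under 0.05, which 144 genes (0.884% of those tested) reached in either direction. As a check of the labels, *Smarcc2* was at 428 to 486 CPM in the control and at 241 to 292 CPM in the dcKO_Nex-Cre libraries (log2 fold change -0.81, standard error (SE) 0.09, adjusted p = 0.00267 from edgeR). *Smarcc1* was at 139 to 164 CPM in the control and at 93.0 to 122 CPM in the dcKO_Nex-Cre libraries (log2 fold change -0.53, SE 0.10, adjusted p = 0.0348 from edgeR). *Smarcc1* kept its direction but missed the threshold on leaving out any one control library or dcKO_Nex-Cre replicate 1 or 3, and also within lane tag 2. The names of the deposited files gave lane tag 2 for the 4 control libraries and for dcKO_Nex-Cre replicates 1 and 2, and lane tag 8 for dcKO_Nex-Cre replicates 3 and 4. Lane tag 8 thus held dcKO_Nex-Cre libraries only. A fit within lane tag 2 also leaves out dcKO_Nex-Cre replicate 4, so it is no separate check of the lane. Nothing in the labels says that the libraries came from separate animals, so p values measure the spread between these libraries. In control replicate 2 and dcKO_Nex-Cre replicate 4, the respiratory chain genes stood apart from the rest of their groups. Values without these libraries are therefore given beside the results. As the members' own values pointed to these libraries, a smaller p without them is no independent support for a change. In bulk cortex, fewer cells of a type and less RNA per cell cannot be told apart.

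The mitochondrial genome was only partly represented in the counts. Of its 13 protein genes, *mt-Nd1*, *mt-Nd2*, *mt-Nd4*, *mt-Nd5* and *mt-Nd6* (complex I), *mt-Cytb* (complex III) and *mt-Co1* (complex IV) were counted at high levels. *mt-Co2*, *mt-Co3*, *mt-Atp6*, *mt-Atp8* and *mt-Nd4l* were listed at 0 in all 8 libraries, and *mt-Nd3* at 0 or 1. These 6 genes form most of the stretch from position 7013 to 10173 of the mitochondrial chromosome (GRCm38). The same stretch of sequence has been copied into the nuclear genome on chromosome 1, where GENCODE M21 annotates a row of unprocessed pseudogenes between 24611535 and 24616197. When each gene was divided into words of 50 bases, *mt-Co2* shared all of them with annotated transcripts of other genes. The share was 99.9% for *mt-Co3*, 99.5% for *mt-Atp6*, 98.8% for *mt-Nd4l* and 98.0% for *mt-Nd3*, against 51.1% for *mt-Co1*, 62.2% for *mt-Nd4* and 8.19% or less for the other 4 counted genes. *mt-Atp8* shared none, and the stretch of chromosome 1 that faces it carries no annotated transcript and was not analysed here. How reads that match more than 1 place were counted is not given in the sources used here, so that the zeros do not give the level of these RNAs.

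The first 60 bases of *mt-Co2* and *mt-Nd3* are shown with their chromosome 1 copies, with capitals at the bases that differ (coding sequence, GENCODE M21 on GRCm38).
mt-Co2: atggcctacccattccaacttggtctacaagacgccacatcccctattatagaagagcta
Gm28661: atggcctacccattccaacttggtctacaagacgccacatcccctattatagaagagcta
mt-Nd3: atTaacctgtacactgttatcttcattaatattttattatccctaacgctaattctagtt
Gm28438: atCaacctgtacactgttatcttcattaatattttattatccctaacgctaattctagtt
Over 681 aligned bases *mt-Co2* and *Gm28661* were identical, and *mt-Nd3* and *Gm28438* differed at 1 base of 345. The pseudogene *Gm28438* took 170 to 309 counts per library, while each of the other 6 pseudogenes of the row took at most 16. In CPM, *Gm28438* was highest in control replicate 2 (16.9) and dcKO_Nex-Cre replicate 4 (16.1) and lay between 5.36 and 9.12 in the other 6 libraries, and the 8 libraries stood in the same order as for *mt-Co1*.

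The counted mitochondrial RNAs differed more between libraries of a group than between the groups. *mt-Co1*, which encodes the catalytic subunit of cytochrome c oxidase, was at 10122, 18712, 8959 and 10918 CPM in control replicates 1 to 4. In dcKO_Nex-Cre replicates 1 to 4 it was at 6368, 8414, 9520 and 16455 CPM. *mt-Cytb*, the cytochrome b of complex III, was at 8541, 16585, 7790 and 9428 CPM in the control and at 5569, 6977, 7830 and 14329 CPM in the dcKO_Nex-Cre libraries. Control replicate 2 and dcKO_Nex-Cre replicate 4 were the highest of all 8 libraries for both genes, dcKO_Nex-Cre replicate 1 was the lowest, and the groups overlapped. The same held for each of the other 5 genes. From the lowest to the highest library the ratio was between 2.86 (*mt-Nd5*) and 3.05 (*mt-Nd2*), so that all 7 genes spread by nearly the same factor.

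**Figure D1:**
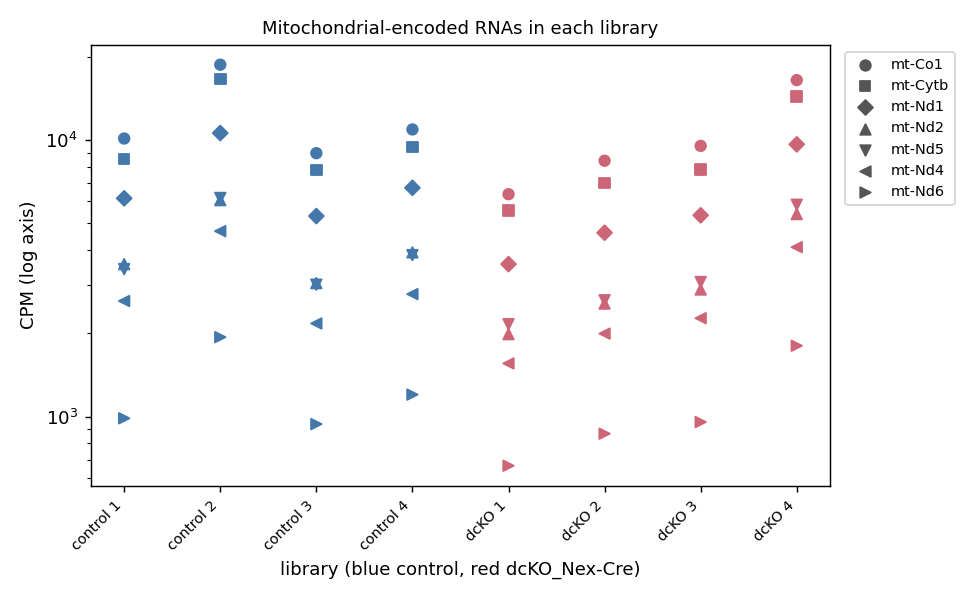
CPM of the 7 counted mitochondrial-encoded genes (one marker shape per gene, log axis) in each of the 4 control (blue) and 4 dcKO_Nex-Cre libraries (red, labelled dcKO). All 7 genes are highest in control replicate 2 and dcKO_Nex-Cre replicate 4 and lowest in dcKO_Nex-Cre replicate 1, and their spacing within a library hardly varies.

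The proportions among the 7 RNAs were nearly constant. *mt-Co1* took 28.1% to 29.97% of their summed counts in each library, *mt-Cytb* 24.1% to 25.6%, *mt-Nd1* 16.3% to 17.4% and *mt-Nd6* 2.79% to 3.13%. Per kilobase of transcript, mean levels in the control were in the order *mt-Cytb* (9253 CPM per kb), *mt-Co1* (7882), *mt-Nd1* (7516), *mt-Nd2* (3994), *mt-Nd6* (2440), *mt-Nd5* (2251) and *mt-Nd4* (2222). When levels were instead divided by the words of 50 bases that a gene shares with no other transcript, *mt-Co1* came first and *mt-Nd4* moved ahead of *mt-Nd2*, so the order of these genes depends on how shared reads were counted. *mt-Nd6* is the only protein gene on the other strand of the mitochondrial genome, and as the kit does not keep strand, its reads cannot be told apart from precursor RNA of the opposite strand. The ribosomal RNAs of the same genome, *mt-Rnr1* (12S) and *mt-Rnr2* (16S), stood at 7.43 to 8.55 counts per 100 counts of the 7 protein genes.

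None of the 7 mitochondrial genes was called, and none had an unadjusted p under 0.05 from edgeR's test. Their log2 fold changes lay between -0.37 (*mt-Nd2*, SE 0.30, adjusted p = 0.602 from edgeR) and -0.24 (*mt-Nd6*, SE 0.32, adjusted p = 0.764 from edgeR), with a median of -0.29 where the median of all genes tested was 0.0043. DESeq2's Wald test and limma-voom called none either. *mt-Rnr1* (log2 fold change -0.32, adjusted p = 0.636 from edgeR) and *mt-Rnr2* (-0.39, adjusted p = 0.562 from edgeR) had values in the same range. The median rested on single libraries: it was -0.64 without dcKO_Nex-Cre replicate 4, 0.01 without control replicate 2, and -0.37 without both. Without control replicate 2, 4 of the 7 genes turned to a log2 fold change above 0, the highest being *mt-Nd6* at 0.05. Within lane tag 2, which also leaves out dcKO_Nex-Cre replicate 4, the median was -0.77, with adjusted p from edgeR no lower than 0.126 (*mt-Nd2*).

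As a share of all counts, the 7 mitochondrial genes took 3.55%, 6.31%, 3.11% and 3.92% in control replicates 1 to 4. They took 2.14%, 2.89%, 3.20% and 5.71% in dcKO_Nex-Cre replicates 1 to 4. The means were 4.23% ± 1.43 (SD, n = 4) and 3.48% ± 1.55 (SD, n = 4), a difference of -0.74 percentage points, well within the spread of either group. The 99 nuclear genes took 1.22%, 1.43%, 1.19% and 1.24% in the control and 1.03%, 1.09%, 1.08% and 1.36% in the dcKO_Nex-Cre libraries. Here too the groups overlapped, through dcKO_Nex-Cre replicate 4, whose share was above that of 3 control libraries.

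Set against the nuclear genes, the 7 counted mitochondrial genes had 2.92, 4.41, 2.61 and 3.17 times their summed counts in control replicates 1 to 4. In dcKO_Nex-Cre replicates 1 to 4 this was 2.08, 2.65, 2.96 and 4.20 times. The 6 other mitochondrial protein genes had next to no counts, so the size of the ratio is that of a part of this genome. On the log2 scale this ratio was 1.68 ± 0.33 (SD, n = 4) in the control and 1.52 ± 0.42 (SD, n = 4) in the dcKO_Nex-Cre cortex. The difference of -0.16 was smaller than either SD, and it lay between -0.34 and -0.00254 over the fits with one library removed. Control replicate 2 and dcKO_Nex-Cre replicate 4 were high for both genomes, but more so for the mitochondrial one, and both had a ratio above 4, which no other library reached.

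**Figure D2:**
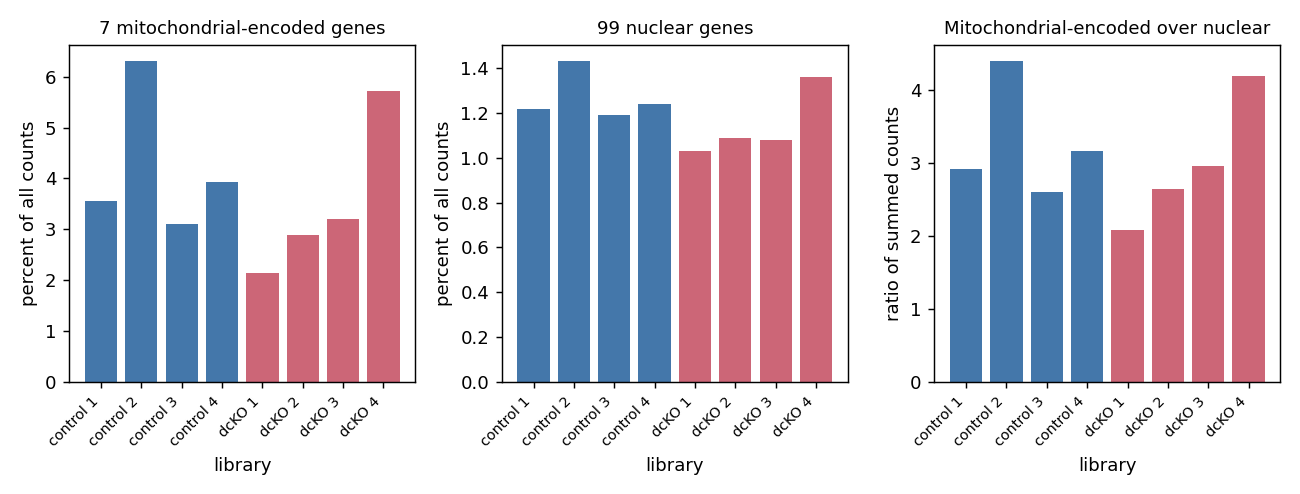
Percent of all counts taken by the 7 mitochondrial-encoded genes (left) and by the 99 nuclear genes (middle), and the ratio of their summed counts (right), in each control (blue) and dcKO_Nex-Cre library (red, labelled dcKO). The mitochondrial share spans 2.14% to 6.31% and the nuclear share 1.03% to 1.43%, and in all 3 panels control replicate 2 and dcKO_Nex-Cre replicate 4 stand above the other libraries of their group.

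Among the 99 nuclear genes, 87 had a log2 fold change below 0, against 49.1% of all genes tested. Their median log2 fold change was -0.20, and the values ran from -0.85 (*Cox16*) to 0.14 (*Sdha*). None was called by edgeR's test at an adjusted p under 0.05, and the smallest adjusted p was 0.125. At an unadjusted p under 0.05, 14 genes had lower values and 0 had higher values in the dcKO_Nex-Cre cortex, where 7.05% of all genes tested passed in the first direction and 6.59% in the second. All 4 dcKO_Nex-Cre libraries lay below all 4 control libraries for 2 of the 99 genes, *Cox16* and *Ndufa12*, and 4.01% of all genes tested showed this. No member lay the other way, which 3.99% of all genes tested did. DESeq2's Wald test called *Cox16* and *Ndufaf4* (3.03% of all genes were called in either direction there and 1.71% lower), edgeR without the filter on low counts called *Cox16* alone (0.860% and 0.498%), and limma-voom (0.798% and 0.485%) and the fit with a replicate block (0.332% and 0.203%) called none.

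The count of calls rested on single libraries. Without dcKO_Nex-Cre replicate 4, 25 nuclear genes were called, all lower in the dcKO_Nex-Cre cortex, and the median of the 99 genes was -0.29. That fit called 7.73% of all genes tested in either direction and 3.74% lower. It called short protein-coding genes, to which most members belong, lower more often, as given below with transcript length. Without control replicate 2 as well, an alternative chosen after the values were seen, 41 were called, all lower, where 5.50% of all genes tested were called lower, and these 41 include all of the 25. Leaving out control replicate 2 alone gave a median of -0.11 and no call. Within lane tag 2, which also leaves out dcKO_Nex-Cre replicate 4, *Ndufb7* and *Ndufaf4* were called lower, with a median of -0.33. Of all genes, 1.48% were called there in either direction and 0.643% lower. In every one of these fits no member was called higher.

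**Figure D3:**
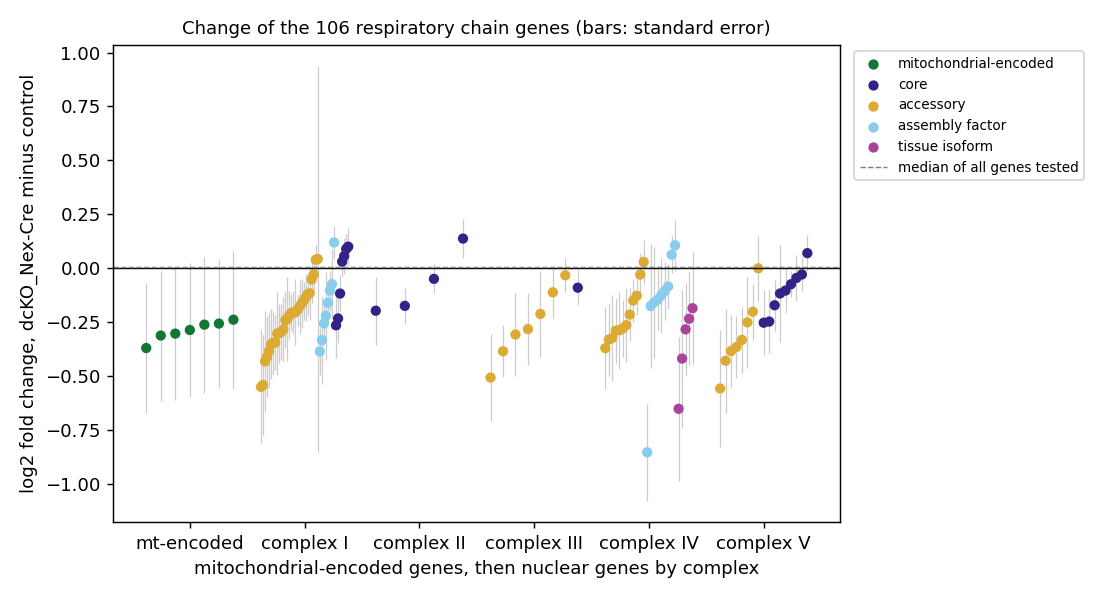
Log2 fold change (dcKO_Nex-Cre minus control) with its standard error from edgeR for each of the 106 genes, for the mitochondrial-encoded genes and for the nuclear genes by complex, coloured by role. Most points lie below 0 and below the dashed median of all genes tested (0.0043), and the 12 above 0 are 6 core subunits, 3 accessory subunits and 3 assembly factors.

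Complex I had 44 nuclear genes, of which 37 had a log2 fold change below 0, 9 with an unadjusted p under 0.05 and 0 called. Its median of -0.21 became -0.29 without dcKO_Nex-Cre replicate 4, with 13 called lower (against 3.74% of all genes), and -0.12 without control replicate 2. Its 7 core subunits, which have counterparts in the bacterial enzyme and carry the flavin and iron-sulfur centres, had a median of 0.03, and of -0.0086 without dcKO_Nex-Cre replicate 4. *Ndufv1*, the subunit that binds NADH, was at 151, 130.3, 149 and 152 CPM in the control and at 159.9, 144, 146 and 174 CPM in the dcKO_Nex-Cre libraries (log2 fold change 0.10, adjusted p = 0.617 from edgeR). This was among the 5 highest log2 fold changes of the nuclear members, and the groups overlapped.

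The 29 accessory subunits of complex I, which surround the core, had a median of -0.22, with 27 of them below 0. *Ndufb6* was at 69.0, 97.9, 55.4 and 54.8 CPM in control replicates 1 to 4 and at 37.0, 40.7, 42.0 and 70.9 CPM in dcKO_Nex-Cre replicates 1 to 4 (log2 fold change -0.54, SE 0.23, adjusted p = 0.341 from edgeR). *Ndufb4* was at 7.88, 15.1, 8.01 and 8.06 CPM in the control and at 4.64, 6.29, 6.11 and 9.77 CPM in the dcKO_Nex-Cre libraries (log2 fold change -0.55, SE 0.26, adjusted p = 0.385 from edgeR). In both genes dcKO_Nex-Cre replicate 4 reached into the control range and the other 3 dcKO_Nex-Cre libraries stayed below it. *Ndufb9*, the nuclear complex I gene with the most counts, showed the same arrangement, with 208, 318, 200.1 and 207 CPM in the control and 155, 167, 168 and 267 CPM in the dcKO_Nex-Cre libraries (log2 fold change -0.30, adjusted p = 0.505 from edgeR).

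*Ndufa12* differed from these in its even values. It was at 29.5, 31.0, 28.0 and 29.8 CPM in the control and at 25.2, 25.1, 26.0 and 27.2 CPM in the dcKO_Nex-Cre libraries, with no overlap between the groups. The difference on the log2 scale was -0.19 (SE 0.07, adjusted p = 0.287 from edgeR), and it lay between -0.22 and -0.16 with any one library removed. Of the 8 complex I assembly factors, *Ndufaf4* had the smallest p. It was at 55.1, 59.7, 51.2 and 56.6 CPM in the control and at 35.8, 42.2, 40.6 and 51.8 CPM in the dcKO_Nex-Cre libraries (log2 fold change -0.39, SE 0.11, adjusted p = 0.146 from edgeR). Only dcKO_Nex-Cre replicate 4 was within the control range, and without it the adjusted p was 0.0114. *Ndufb7*, the other gene called within lane tag 2, was at 90.5 to 102 CPM in the control, at 66.3 to 69.0 CPM in dcKO_Nex-Cre replicates 1 to 3 and at 106 CPM in replicate 4. *Ndufaf7*, a methyltransferase that acts during assembly, had one of the highest values (log2 fold change 0.12, SE 0.08, adjusted p = 0.517 from edgeR). *Ndufaf4* and *Ndufb7* are named here because an alternative called them, after their values were seen.

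Complex II is the one complex of the chain without a mitochondrial-encoded subunit. *Sdha*, the flavoprotein that oxidizes succinate, had the highest log2 fold change of all 99 nuclear genes. It was at 197, 173, 204 and 204 CPM in control replicates 1 to 4 and at 227, 217, 228 and 183 CPM in dcKO_Nex-Cre replicates 1 to 4, a difference of 0.14 on the log2 scale (SE 0.09, adjusted p = 0.526 from edgeR). *Sdhb*, the iron-sulfur subunit, was at 177, 174, 177 and 179 CPM in the control and at 151, 149, 143 and 183 CPM in the dcKO_Nex-Cre libraries (log2 fold change -0.17, SE 0.09, adjusted p = 0.391 from edgeR). Dehydrogenase and iron-sulfur subunits thus had values on opposite sides of 0, but neither difference passed the test, and the difference between them was not tested. In dcKO_Nex-Cre replicate 4 *Sdha* was within the control range, which the other 3 exceeded, and *Sdhb* was above it, where the other 3 were below.

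Of the membrane anchors, *Sdhc* was at 125, 129.6, 135 and 138 CPM in the control and at 122, 122, 131 and 135 CPM in the dcKO_Nex-Cre libraries (log2 fold change -0.05, adjusted p = 0.769 from edgeR). *Sdhd* was at 155, 195, 153 and 169 CPM in the control and at 128, 125, 127 and 206 CPM in the dcKO_Nex-Cre libraries (log2 fold change -0.20, adjusted p = 0.593 from edgeR). *Sdhb* and *Sdhd* were among the 25 genes called without dcKO_Nex-Cre replicate 4, at log2 fold changes of -0.26 (adjusted p = 0.0334 from edgeR) and -0.40 (adjusted p = 0.0241 from edgeR). *Sdha* (0.21) and *Sdhc* (-0.07) were not called there.

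All 8 nuclear members of complex III, which leave out *Cyc1* because its symbol falls outside the rule, had log2 fold changes below 0. Their median was -0.25, with 2 at an unadjusted p under 0.05 and 0 called. The median was -0.44 without dcKO_Nex-Cre replicate 4, with 3 called lower (against 3.74% of all genes), and -0.09 without control replicate 2. The most counted nuclear gene, *Uqcrc2*, a large subunit on the matrix side, was at 312, 364, 305 and 318 CPM in the control and at 266, 273, 281 and 381 CPM in the dcKO_Nex-Cre libraries (log2 fold change -0.11, adjusted p = 0.696 from edgeR). *Uqcrb*, a small subunit next to the quinone site, was at 27.2, 34.04, 23.7 and 25.02 CPM in the control and at 20.1, 19.8, 20.1 and 24.1 CPM in the dcKO_Nex-Cre libraries (log2 fold change -0.39, SE 0.12, adjusted p = 0.198 from edgeR). *Uqcrq* had the lowest value of the complex, with 103, 128, 83.7 and 85.7 CPM in the control and 52.0, 61.4, 65.9 and 103 CPM in the dcKO_Nex-Cre libraries (log2 fold change -0.51, SE 0.20, adjusted p = 0.307 from edgeR). In *Uqcrq*, only dcKO_Nex-Cre replicate 4 was within the control range. *Uqcrb* and *Uqcrq* were chosen after their values were seen.

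Complex IV had 26 nuclear genes, 23 of them below 0, with a median of -0.20. This was -0.29 without dcKO_Nex-Cre replicate 4, with 4 called lower (against 3.74% of all genes), and -0.11 without control replicate 2. *Cox16*, an assembly factor, had the lowest log2 fold change and the smallest p of all 106 genes. It was at 5.72, 6.95, 4.21 and 3.88 CPM in control replicates 1 to 4 and at 2.46, 2.26, 3.43 and 3.37 CPM in dcKO_Nex-Cre replicates 1 to 4, with no overlap. On the log2 scale the difference was -0.85 (SE 0.22, adjusted p = 0.125 from edgeR). It lay between -0.97 and -0.68 with any one library removed. Of those fits, it passed the threshold only without dcKO_Nex-Cre replicate 4 (adjusted p = 0.0401 from edgeR). It also passed by DESeq2's Wald test, by edgeR without the filter on low counts, and without control replicate 2 and dcKO_Nex-Cre replicate 4. *Cox16* (chromosome 12, 81359026 to 81485127) shares 54.2% of its words of 50 bases with *Gm20498*, an overlapping annotated gene, so reads of the pair could be assigned to either. *Cox4i1*, the common isoform of subunit 4, was the most counted nuclear gene of the complex. It was at 491, 774, 503 and 494 CPM in the control and at 418, 426, 425 and 613 CPM in the dcKO_Nex-Cre libraries (log2 fold change -0.26, SE 0.17, adjusted p = 0.513 from edgeR). Within each group 3 libraries were nearly equal, and control replicate 2 and dcKO_Nex-Cre replicate 4 stood far above them. *Cox10*, which makes heme O for the oxidase, was among the 5 highest nuclear values (log2 fold change 0.11, SE 0.12, adjusted p = 0.709 from edgeR).

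Complex V had 17 nuclear genes, 16 of them below 0, with a median of -0.20. Without dcKO_Nex-Cre replicate 4 the median was -0.31, with 3 called lower (against 3.74% of all genes), and without control replicate 2 it was -0.08. The 9 core subunits had a median of -0.10 and the 8 accessory subunits one of -0.35. *Atp5b*, the catalytic beta subunit and the most counted nuclear gene of all 99, was at 1244, 1097, 1269 and 1273 CPM in the control and at 1191, 1182, 1163 and 1249 CPM in the dcKO_Nex-Cre libraries (log2 fold change -0.03, SE 0.08, adjusted p = 0.893 from edgeR). *Atp5e*, the epsilon subunit of the rotor, was at 227, 373, 195 and 216 CPM in the control and at 123, 144, 146 and 274 CPM in the dcKO_Nex-Cre libraries (log2 fold change -0.56, SE 0.27, adjusted p = 0.393 from edgeR). Control replicate 2 was the lowest control library for *Atp5b* but the highest for *Atp5e*. Without control replicate 2 and dcKO_Nex-Cre replicate 4, *Atp5e* had an adjusted p of 0.00151 (log2 fold change -0.62) and *Atp5b* one of 0.357 (log2 fold change -0.09), both from edgeR. These libraries were left out after the values were seen, and *Atp5e* itself stood apart in dcKO_Nex-Cre replicate 4. Leaving out such values narrows the spread, so the small p is not evidence of a change.

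The isoforms that are typical of muscle, lung, testis or hypoxic cells were barely expressed. *Cox6a2* and *Cox7a1*, known from heart and skeletal muscle, had mean levels of 0.80 ± 0.26 and 1.04 ± 0.23 CPM in the control (SD, n = 4). In the dcKO_Nex-Cre cortex these were 0.53 ± 0.21 and 0.80 ± 0.37 CPM (SD, n = 4). *Cox4i2*, known from lung, was at 1.74 ± 0.40 and 1.44 ± 0.14 CPM in control and dcKO_Nex-Cre cortex, *Ndufa4l2*, which is induced in low oxygen, at 2.53 ± 0.45 and 2.17 ± 0.48 CPM, and *Cox6b2*, known from testis, at 1.78 ± 0.63 and 1.57 ± 0.16 CPM (SD, n = 4 each). All 5 had log2 fold changes below 0, from -0.65 (*Cox6a2*, SE 0.33, adjusted p = 0.408 from edgeR) to -0.19 (*Cox6b2*), and none was called. *Cox7b2* (1 to 11 counts per library), *Cox8b* and *Cox8c* (0 to 2 counts) were under the count minimum. Skeletal muscle markers summed to 5.69 to 7.01 CPM in the control and 4.43 to 5.65 CPM in the dcKO_Nex-Cre libraries. Their part in the values of *Cox6a2* and *Cox7a1* was not tested.

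Grouped by role rather than by complex, the 21 core subunits had a median log2 fold change of -0.09, the 56 accessory subunits -0.26 and the 17 assembly factors -0.15. The core group held 7 subunits of complex I, 4 of complex II, 1 of complex III and 9 of complex V. Complex IV gave no nuclear core subunit, and *Uqcrc1* and *Uqcrc2* were set among the accessory subunits. At an unadjusted p under 0.05 there were 0 core subunits, 11 accessory subunits and 3 assembly factors, all with lower values in the dcKO_Nex-Cre cortex, where 7.05% of all genes tested passed in that direction. Without dcKO_Nex-Cre replicate 4, 5 core subunits, 16 accessory subunits and 4 assembly factors were called lower, where 3.74% of all genes tested were. The accessory median was -0.41 there. Without control replicate 2 the accessory median was -0.12 and none was called. Whether the roles differ was not tested. Roles were assigned after the values were seen. Most accessory subunits are small, and transcript length went along with role: the median length was 600.5 bases for accessory and 1030 bases for core subunits. A gene's length here is the median over its annotated protein-coding transcripts, not that of the transcript expressed in cortex. For *Ndufs1* it was 651 bases and for *Uqcrc1* 533, although their transcripts held 8442 and 4425 different words of 50 bases. The groups by length are therefore rough. Among nuclear members under 750 bases the median was -0.27 (54 genes), and over all 1161 tested protein-coding genes of that length it was -0.055. Between 750 and 1499 bases the medians were -0.12 (36 members) and -0.028 (3010 genes), and from 1500 to 2999 bases -0.07 (8 members) and 0.015 (5133 genes). By role, medians under 750 bases were -0.14 for 4 core and -0.28 for 41 accessory subunits. From 750 to 1499 bases they were -0.09 for 13 core and -0.16 for 14 accessory subunits. Without dcKO_Nex-Cre replicate 4, 16 of 54 members and 100 of 1161 genes under 750 bases were called lower. From 750 to 1499 bases these were 8 of 36 and 193 of 3010. The 3.74% of all genes tested is thus a low mark for the members.

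Core and accessory subunits differed in how far single libraries stood from the rest. The median deviation of the accessory subunits from the mean of the 8 libraries, on the scale of log2(CPM + 0.5), was 0.43 in control replicate 2 and 0.23 in dcKO_Nex-Cre replicate 4. It was -0.0086 to 0.04 in the other control libraries and -0.28 to -0.23 in the other dcKO_Nex-Cre libraries. For the core subunits the same values were 0.07, 0.15, -0.0034 to 0.04 and -0.09 to -0.05. The mitochondrial genes deviated by 0.82 in control replicate 2 and 0.66 in dcKO_Nex-Cre replicate 4, and by -0.73 in dcKO_Nex-Cre replicate 1. Cytosolic ribosomal protein genes, which are also short, deviated in the same libraries, by 0.50 and 0.31, and their summed level was 16594 and 15323 CPM there against 10280 to 11555 CPM in the other 6 libraries. Protein-coding genes of at least 3000 bases deviated the other way, by -0.04 and -0.09. The part of transcript length or RNA quality in the values of the respiratory chain genes was not tested.

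**Figure D4:**
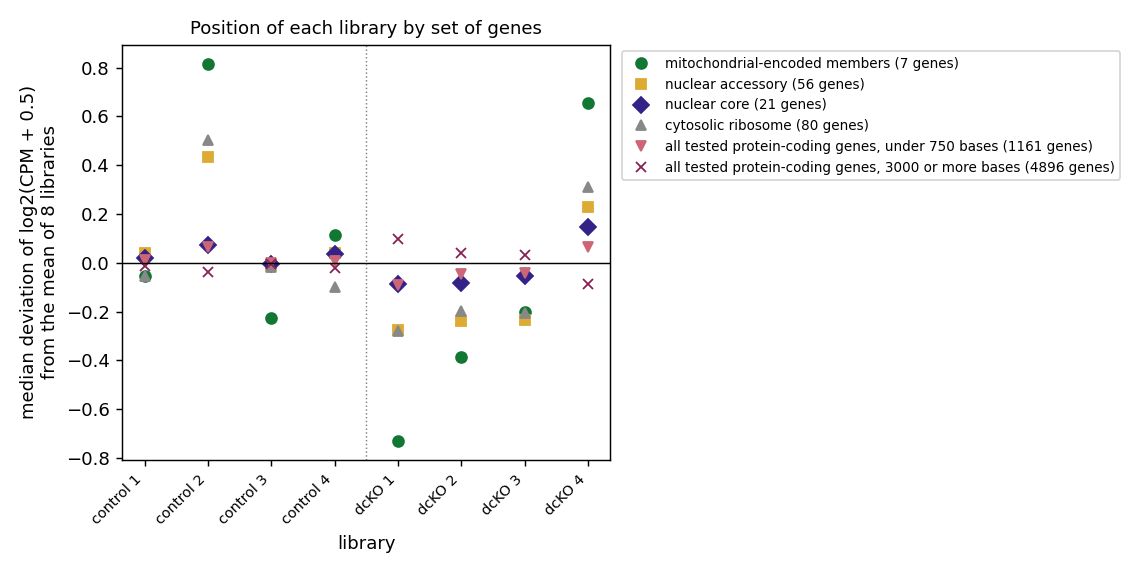
Median deviation of log2(CPM + 0.5) from the mean of the 8 libraries for each library, for mitochondrial-encoded members, nuclear accessory and core subunits, cytosolic ribosomal proteins, and the shortest and longest protein-coding genes. Control replicate 2 and dcKO_Nex-Cre replicate 4 are above 0 for every set but the longest genes, and the mitochondrial genes have the widest range, from -0.73 to 0.82.

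*Ndufs5*, an accessory subunit of complex I (chromosome 4, 123712710 to 123718202), followed no group. It had 136, 232, 20 and 257 counts in control replicates 1 to 4 and 331, 234, 15 and 227 counts in dcKO_Nex-Cre replicates 1 to 4. Both libraries numbered 3 were thus far below the other 6. Among 16287 genes tested, *Ndufs5* was the only one for which these 2 libraries were at least 3 times lower than every other library, and 0 genes were as much higher. *BC002163*, a pseudogene on chromosome 16 that is a near copy of the *Ndufs5* coding sequence, had 379, 264, 562 and 278 counts in the control and 339, 252, 531 and 245 counts in the dcKO_Nex-Cre libraries, with the highest values in the same 2 libraries. The pair together was at 23.6, 27.1, 24.3 and 23.6 CPM in the control and at 19.4, 18.6, 22.5 and 26.5 CPM in the dcKO_Nex-Cre libraries. *Ndufs5* took 3.44% and 2.75% of the pair's counts in the libraries numbered 3, 26.4% in control replicate 1 and 46.8% to 49.4% in the other 5.

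The sequences of the pair differ at 2 of 319 aligned bases. Both differences, in capitals, lie in bases 51 to 110 of the *Ndufs5* coding sequence (GENCODE M21), shown here because they are the bases that separate the 2 genes where they align.
Ndufs5: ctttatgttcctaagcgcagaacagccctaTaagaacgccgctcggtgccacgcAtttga
BC002163: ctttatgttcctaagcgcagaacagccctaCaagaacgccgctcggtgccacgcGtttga
Of the words of 50 bases in *Ndufs5* transcripts, 196 of 903 are shared with *BC002163*, and the other 707 are found in no annotated transcript of another gene. Since the level of *Ndufs5* varied by a factor of 20.6 in CPM between libraries and the sum of the pair by 1.46, the value of *Ndufs5* alone is uncertain, and the fold change of this gene was not interpreted. The cause of this pattern was not tested.

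**Figure D5:**
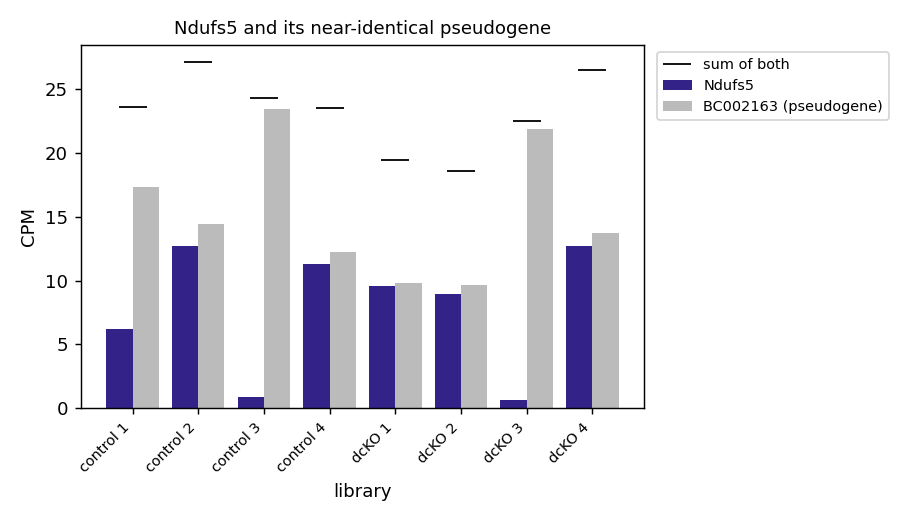
CPM of *Ndufs5* (dark bars), of its pseudogene *BC002163* (grey bars) and of both together (black dashes) in each library (control, and dcKO_Nex-Cre labelled dcKO). *Ndufs5* is under 1 CPM in both libraries numbered 3, where *BC002163* exceeds 21 CPM, and the sum stays between 18.6 and 27.1 CPM.

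Sequence shared with other genes was found for other nuclear members as well. Of the 99, 40 shared no word of 50 bases with another gene's transcript. *Cox20* shared the most (84.8%, most of it with *Hnrnpu*), followed by *Ndufaf2* (64.1%) and *Cox16* (54.2%), and the values of these genes are uncertain where reads were placed by such stretches. Depth also differed widely. *Cox6a2* had a mean of 15.1 counts per library and *Atp5b* one of 28611, and the median of the 99 genes was 1982.

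The promoters of the nuclear genes were compared for motifs of factors known to drive respiratory genes: the core of the NRF1 site (CGCATGCG), ETS factors such as GABP (CCGGAAG), YY1 (ATGGCGGC) and SP1 (GGGCGG), and for the TATA box (TATAAA). Windows from 250 bases before to 50 bases after the start site (RefSeq, GRCm38.p6) were found for 81 of the 99 genes, and exact matches on either strand were counted, with no regard to overlap between motifs. NRF1 matched 11 of 81 promoters (13.6%, against 2.07% of 27025 genes), ETS 23 (28.4%, against 9.93%), YY1 9 (11.1%, against 2.60%), SP1 39 (48.1%, against 38.2%) and TATA 6 (7.41%, against 15.7%). The 27025 genes were all genes with such a window, whether or not they were protein-coding or expressed here. The shares therefore do not show that these matches are particular to respiratory chain genes among expressed genes. A match describes the letters of the window and does not show that a factor was bound. The NRF1 core was in the promoters of *Atp5g2*, *Atp5j*, *Atp5k*, *Atp5l*, *Cox6a1*, *Ndufa8*, *Ndufa11*, *Ndufaf4*, *Ndufaf5*, *Uqcr11* and *Uqcrc1*. For *Ndufaf4*, whose p was the second smallest of the members, and *Atp5k*, a small subunit of ATP synthase, it is shown in capitals with 25 bases on either side, in the direction of the gene.
Ndufaf4 (chr4:24897946-24898003, + strand): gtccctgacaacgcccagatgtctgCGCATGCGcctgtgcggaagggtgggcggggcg
Atp5k (chr5:108434416-108434473, - strand): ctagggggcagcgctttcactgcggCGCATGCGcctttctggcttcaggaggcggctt
In these genes the core begins 112 and 49 bases before the start site.

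Genes outside the subunit families were taken from lists for the wider pathway. Of 17 regulators of mitochondrial biogenesis (among them *Nrf1*, *Gabpa*, *Esrra* and *Yy1*), 0 were called, 1 had lower and 3 had higher values at an unadjusted p under 0.05. The coactivator *Ppargc1a* was at 18.2 to 21.4 CPM in the control and 21.2 to 26.2 CPM in the dcKO_Nex-Cre libraries (log2 fold change 0.27, SE 0.10, adjusted p = 0.250 from edgeR). Its relative *Ppargc1b* was at 0.881 to 1.92 and 0.522 to 0.805 CPM (log2 fold change -0.87, SE 0.31, adjusted p = 0.258 from edgeR). Of 17 genes of mtDNA maintenance and transcription 0 were called. The helicase *Twnk* (log2 fold change 0.29, adjusted p = 0.277 from edgeR) and the polymerase subunit *Polg2* (0.30, adjusted p = 0.289 from edgeR) had the smallest p. Of 18 genes of mitochondrial RNA processing and turnover 0 were called, and *Rexo2*, an exonuclease for very short RNA, had a log2 fold change of -0.27 (adjusted p = 0.200 from edgeR) and *Fastkd1* one of 0.15 (adjusted p = 0.419 from edgeR). With all 8 libraries, none of these 3 lists had a median beyond 0.06 in either direction. The median of the biogenesis list was 0.13 without control replicate 2, and that of the mtDNA list -0.09 without dcKO_Nex-Cre replicate 4. In the latter fit 2 genes of RNA processing were called lower (against 3.74% of all genes tested).

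Around the chain itself, 1 of 15 tested genes of cytochrome c, *Cyc1* and coenzyme Q synthesis was called. *Coq8a*, a kinase-like protein of coenzyme Q synthesis, rose, with 6.19 to 7.09 CPM in the control and 9.19 to 12.2 CPM in the dcKO_Nex-Cre libraries (log2 fold change 0.68, SE 0.12, adjusted p = 0.0338 from edgeR), with no overlap. Of 33 tested assembly factors whose symbols fall outside the families, 24 had values below 0, with a median of -0.11 and 0 called. Without dcKO_Nex-Cre replicate 4 the median was -0.18 with 4 called lower (against 3.74% of all genes), and without control replicate 2 it was -0.04. *Coa6* (log2 fold change -0.55, SE 0.17, adjusted p = 0.178 from edgeR) and *Lyrm7* (-0.39, SE 0.14, adjusted p = 0.252 from edgeR) had the smallest p of them. Of 22 genes of the TCA cycle and pyruvate dehydrogenase, 1 was called: *Pdk4*, the kinase that switches pyruvate dehydrogenase off, rose, with 3.12 to 4.54 CPM in the control and 6.01 to 10.5 CPM in the dcKO_Nex-Cre libraries (log2 fold change 1.12, SE 0.22, adjusted p = 0.0399 from edgeR). Both missed the threshold, in the same direction, on leaving out any one control library or dcKO_Nex-Cre replicate 2 or 3, as did *Coq8a* within lane tag 2 and *Pdk4* by limma-voom. Without dcKO_Nex-Cre replicate 4, 3 genes of the cytochrome c and coenzyme Q list were called lower and 1 higher, with a median of -0.11. Of the TCA list 3 were called higher and 0 lower there, with a median of 0.0020. Without control replicate 2, 0 genes of either list were called.

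The 19 glycolytic genes had a median of 0.02 and 0 called, but 1 was called lower and 2 higher without dcKO_Nex-Cre replicate 4. That fit called 7.73% of all genes tested in either direction. The glucose transporter *Slc2a1* just missed the threshold, at 34.6 to 47.8 CPM in the control and 49.3 to 77.1 CPM in the dcKO_Nex-Cre libraries (log2 fold change 0.69, SE 0.14, adjusted p = 0.0504 from edgeR), and *Gpi1* had a log2 fold change of -0.31 (adjusted p = 0.146 from edgeR). Of 19 tested genes of the mitochondrial stress response 0 were called, and *Oma1* (-0.35, adjusted p = 0.252 from edgeR) and *Clpx* (0.14, adjusted p = 0.436 from edgeR) had the smallest p. The protein genes of the ribosomes resembled the respiratory chain genes in direction: 63 of 77 mitochondrial and 66 of 80 cytosolic ribosomal protein genes had values below 0, with medians of -0.15 and -0.21 and 0 called. Without dcKO_Nex-Cre replicate 4 the medians were -0.24 and -0.37, with 17 and 5 called lower, where 3.74% of all genes tested were. Without control replicate 2 they were -0.07 and -0.0033, with 0 called. *Mrps12* (-0.33) and *Mrps34* (-0.94) had the smallest p of the mitochondrial list, with adjusted p of 0.125 and 0.159 from edgeR, and *Rps16* (-1.09) and *Rpl24* (-0.65) of the cytosolic list, with adjusted p of 0.152 and 0.171 from edgeR.

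Cell type markers were examined because mitochondrial content differs between cell types. The 8 excitatory neuron markers summed to 1518 to 1773 CPM in the control and 1251 to 1476 CPM in the dcKO_Nex-Cre libraries. Their median log2 fold change was -0.13, with 6 below 0 and 2 above. 1 of the 8 was called, *Neurod6* (log2 fold change -0.74, adjusted p = 0.0192 from edgeR), which is the gene into which Nex-Cre is inserted. The sums include *Neurod6*, and its part in their difference was not tested, so they do not give the number of neurons. Of the 6 microglia markers, which summed to 91.4 to 106 CPM and 100.02 to 135 CPM, *C1qb* was called higher (log2 fold change 0.46, adjusted p = 0.0422 from edgeR). None of 6 interneuron, 7 radial glia and astrocyte, 6 oligodendrocyte lineage, 6 endothelial and pericyte, 5 tested erythroid, 5 choroid plexus, 5 tested skeletal muscle and 4 proliferating cell markers was called with all 8 libraries. Without dcKO_Nex-Cre replicate 4, 3 microglia and 2 oligodendrocyte lineage markers were called higher, and 1 radial glia and astrocyte and 1 endothelial and pericyte marker lower. That fit called 7.73% of all genes tested in either direction. Without control replicate 2, 1 interneuron marker was called lower. Choroid plexus markers summed to between 4.04 and 1349 CPM, and were highest in control replicates 1 and 4 and dcKO_Nex-Cre replicate 2. Erythroid markers summed to 186 CPM in dcKO_Nex-Cre replicate 4 and to 82.2 to 138 CPM in the other 7 libraries. In control replicate 2 and dcKO_Nex-Cre replicate 4 the excitatory neuron markers summed to 1518 CPM, the lowest control value, and 1266 CPM, within the range of the other dcKO_Nex-Cre libraries. Oligodendrocyte lineage markers were lowest of their group in both, at 204 CPM (other controls 278 to 288) and 275 CPM (other dcKO_Nex-Cre libraries 314 to 342). Interneuron markers were highest of their group in both, at 818 CPM (others 676 to 690) and 740 CPM (others 582 to 706). Choroid plexus and skeletal muscle markers were also lowest of their group in both, and no other marker list was lowest or highest in both. No marker of these lists was at 0 in all libraries. The part of cell composition in the values of the members was not tested.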

How the data were processed

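RNA-seq was read from P1 cortex, 4 control and 4 dcKO_Nex-Cre libraries. Per the labels and the methods of the study, total RNA was extracted with TRIZOL and libraries were made with the TruSeq RNA v2 kit. The deposited values are raw counts per Ensembl gene, made by the authors on mm10; the aligner, the counting program and the strand setting are not given in the sources used here. Gene symbols, types and transcripts came from GENCODE M21, which matched 48349 of 48709 IDs. The members and lists were chosen with earlier results of these data known. Genes were filtered with filterByExpr, scaled by TMM and tested in edgeR 4.0.16 (R 4.3.3; quasi-likelihood, robust, Benjamini-Hochberg), with limma 3.58.1 and DESeq2 1.42.0 as alternatives. The test was run on simulated data first. Named genes were the 13 mitochondrial protein genes and 2 rRNAs, the most counted gene of each complex, the 5 lowest and 5 highest log2 fold changes, genes whose groups did not overlap, complex II, the tissue isoforms and, from each pathway list, the called genes or else the 2 of smallest p; others are named as chosen after their values were seen. One gene that this rule names is not reported here. Words of 50 bases were matched between GENCODE M21 transcripts as a stand-in for reads that fit several genes. A longer form of the NRF1 motif was searched first and is not shown. Samples were not treated as paired by replicate number.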

Additional observations from a re-analysis of the deposited data

Results flagged for a closer look

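In 15 of 64 groups of 4 libraries examined, 1 library stood far from the other 3 by Dixon's test. The test flags about 1 in 20 independent groups by chance. These groups were genes of the same 8 libraries that shifted together, and many were named for their values. The 15 flags are therefore not set against chance. Of these, 8 were dcKO_Nex-Cre replicate 4, 6 were control replicate 2 and 1 was control replicate 4. In dcKO_Nex-Cre replicate 4, *Atp5e* (274 CPM), *Cox4i1* (613 CPM), *Cox6a2* (0.842 CPM), *Cox7a1* (1.35 CPM), *Ndufb6* (70.9 CPM), *Ndufb9* (267 CPM), *Sdhd* (206 CPM) and *Uqcrc2* (381 CPM) were far above the other 3 dcKO_Nex-Cre libraries. In control replicate 2, *Cox4i1* (774 CPM), *Ndufb4* (15.1 CPM) and *Ndufb9* (318 CPM) were far above the other control libraries, and *Atp5b* (1097 CPM), *Cox4i2* (1.15 CPM) and *Ndufv1* (130.3 CPM) were far below them. *Cox6a2* stood apart in control replicate 4, at 1.19 CPM against 0.657 to 0.687 CPM.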

How the results depend on the processing

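The count of nuclear genes called was 0, but 2 by DESeq2's Wald test, 1 (*Cox16*) without the filter on low counts, 2 within lane tag 2, 0 to 25 with each library left out, and 41 without control replicate 2 and dcKO_Nex-Cre replicate 4. The 25 arose without dcKO_Nex-Cre replicate 4, and all 7 other fits with 1 library left out gave 0. The count of mitochondrial genes called was 0 in every alternative. Among the genes chosen to be named by the rule, log2 fold changes that crossed 0 with a library left out ranged from -0.58 to 0.038 for *mt-Co1*, -0.64 to 0.026 for *mt-Cytb*, -0.64 to 0.014 for *mt-Nd5* and -0.61 to 0.052 for *mt-Nd6* (above 0 without control replicate 2), and from -0.37 to 0.0055 for *Cox6b2* (above 0 without control replicate 1). *Ndufv1* was at -0.00050 without both libraries named above, and between 0.05 and 0.14 with 1 left out. Other members crossed 0 too, such as *Ndufb11* (-0.13 to 0.05), *Ndufaf5* (-0.26 to 0.04), *Cox8a* (-0.13 to 0.04) and *Cox7a2l* (-0.04 to 0.14). The cause was not tested. Scaling by DESeq2 size factors, by library totals or by TMM without mitochondrial genes, limma-voom and a minimum of 10 counts in every library changed no count of calls among members.

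The replicate numbers of the 2 groups did not pair the samples: same-numbered libraries correlated at 0.126, 0.018, 0.135 and -0.138 in their deviations from the group means. With the replicate number as a block, 0 members were called, medians were -0.31 for mitochondrial and -0.21 for nuclear genes, and 54 genes passed over all genes tested against 144 without it.

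Depth was lowest for *Cox6a2* and *Cox20*, with means of 15.1 and 19.25 counts per library.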
